A study of Mus musculus with 12 samples.

Results

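Microglia and astrocytes from the same LPS-treated mice were compared library against library, to see which gene programs separated the glial types while both stood under an inflammatory stimulus. All 12 libraries of the series entered, 6 of microglia and 6 of astrocytes, and each microglia library was paired with the astrocyte library of the same animal by the animal number in the labels. The 6 animals were mice aged 8 to 9 weeks. Of these, 3 were wild type (WT) and 3 were knockout (KO) for Kpna4, which encodes importin α4, and all had received 1 mg/kg of lipopolysaccharide (LPS, an outer membrane component of Gram-negative bacteria) into the peritoneal cavity 20 h before dissection. Per the labels, whole brain was dissociated enzymatically, both cell types were collected by fluorescence-activated sorting, and the RNA was turned into full-length cDNA libraries without molecular identifiers. No label names the surface markers of the sorting gates. Untreated mice were not analysed here, so a baseline difference between the cell types and a different response to LPS cannot be told apart. Nothing in the labels says what part of Kpna4 was deleted.

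Microglia are the resident macrophages of the brain parenchyma, of yolk sac origin, and they carry the receptor complex that recognises LPS: CD14 hands LPS to TLR4 and MD-2, and the adaptors MyD88 and TRIF pass the signal on to NF-κB and to interferon regulatory factors. Astrocytes are neural cells that take up transmitters, buffer potassium, supply lipids and line the vessels. In inflamed brain they are known to answer to cytokines such as IL-1 and TNF that microglia release. Interferon-responsive genes are switched on in nearly any cell by secreted interferon, through STAT2 and IRF9, which act on an interferon-stimulated response element (ISRE).

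Levels are given in CPM, the count of a gene per 1000000 counts of its library after scaling by TMM factors over all 12 libraries, and 3 values in a row are the lowest, the median and the highest of the 6 libraries of a type. The log2 fold change is microglia minus astrocytes within animals, with its standard error (SE), a number in brackets after a gene's name is its log2 fold change unless named otherwise, and a gene was called at an edgeR quasi-likelihood adjusted p under 0.05. CPM depend on gene length, so levels are compared between libraries and not between genes. Values are shares of a library: fewer cells of a type and less RNA per cell cannot be told apart. The library totals were 10319842 to 14520453 counts in microglia and 10744794 to 15575662 in astrocytes. The first principal component, 72.5% of the variance, separated the cell types in all 12 libraries, and astrocyte KO replicate 2 stood apart on the second (6.12%). In that library 8 abundant non-coding transcripts took 39.5% of the counts, against 26.2% to 32% in the other astrocyte libraries and 11.8% to 15.4% in microglia. Without that animal 10651 genes were called in place of 10802. Kpna4 was at 69.2, 86.1 and 82.0 CPM in the 3 microglia libraries labelled WT and at 67.3, 59.5 and 52.9 CPM in the 3 labelled KO. In astrocytes it was at 42.7, 57.3 and 57.2 CPM in those labelled WT and at 71.5, 60.9 and 85.1 CPM in those labelled KO. The KO libraries were thus lower in microglia and higher in astrocytes, and none was near 0, so Kpna4 could not serve as a check on the labels. Between the cell types its log2 fold change was 0.17 (SE 0.2), with an edgeR adjusted p of 0.475 and a 95% interval from -0.27 to 0.6, and without KO replicate 3 it was called, at 0.55.

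Microglia and astrocytes differed in most of what they expressed. Of 17294 genes tested, 10802 were called (62.5%), 4829 of them higher in microglia (27.9% of those tested) and 5973 higher in astrocytes (34.5%). The larger number on the astrocyte side was not stable, since the share of called genes that were higher in microglia was 44.7% here but 50.1%, 49.5%, 50.7% and 50.1% without KO replicate 1, 2 or 3 or WT replicate 2. The difference went past 4-fold, by edgeR's test against that size, in 1280 genes on the microglia side (7.4%) and in 3039 on the astrocyte side (17.6%). The median log2 fold change was -0.16 over all genes, 1.6 over the genes called higher in microglia and -3.68 over those called higher in astrocytes. The ranges of the 6 and 6 libraries did not overlap for 7842 genes (45.3%), and 9921 of the called genes had the same sign in all 6 animals. At the other end, 2799 genes (16.2%) had a 95% interval of the difference that lay within 2-fold either way, and these are called alike below. A further 4250 genes were neither called nor alike, so nothing is said about them in either direction. With so many genes called, the counts in each list below are to be read against 27.9% and 34.5%, and the direction and size of its differences say more than the number of calls.

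Each sort held the defining genes of its label. All 14 microglia markers were called higher in microglia, with log2 fold changes from 3.15 (Sall1) to 5.94 (Selplg) and a median of 5.54. Cx3cr1, the fractalkine receptor, was at 2268, 2526 and 3360.3 CPM in microglia and 26.7, 58.9 and 108 CPM in astrocytes, without overlap. All 17 astrocyte markers were called higher in astrocytes, between -4.77 (S100b) and -7.26 (Ntsr2), with a median of -6.52. Slc1a2, the glutamate transporter GLT-1, was at 129, 140.2 and 345 CPM in microglia and 8341, 10144 and 11215 CPM in astrocytes. The markers also had counts in the libraries of the other type, and the source of these counts was not tested. Summed, the microglia list made up 1.32% to 1.78% of the scaled counts of microglia libraries against 0.0259% to 0.0682% of astrocyte libraries, a ratio of the medians of 34.8. The astrocyte list made up 2.35% to 3.24% of astrocyte libraries against 0.0358% to 0.0803% of microglia libraries, a ratio of 72.4. Apart from Sall1, the microglia markers lay between 4.75 and 5.94, and a gene in or above that range stood in the astrocyte libraries at a share of its microglia level as low as that of the markers. Whether its astrocyte counts came from astrocytes or from microglia in the sort was not tested. In all, 733 genes reached 4.75 or more. The marker range from 4.75 to 5.94, used below, leaves out Sall1, the lowest marker, at 3.15. With Sall1 in it, Tlr4, Rel, Relb, Cebpb, Maf and Cebpa, placed below the range in what follows, would lie inside.

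**Figure D1:**
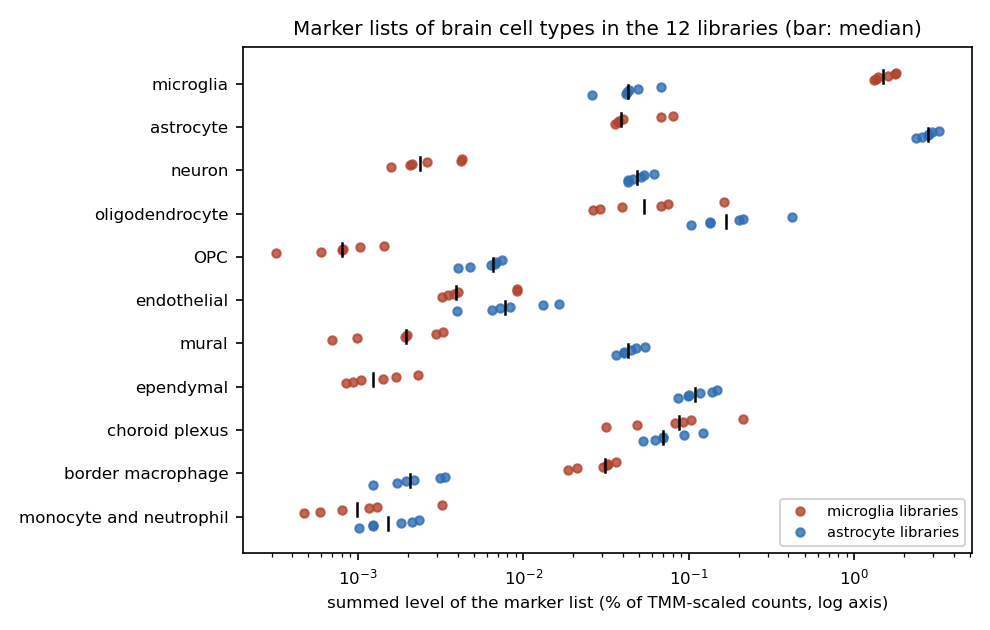
Summed level of 11 marker lists in each library, as percent of TMM-scaled counts on a log axis, with microglia libraries in red, astrocyte libraries in blue and black bars at the medians of 6. The microglia list is at 1.32% to 1.78% in microglia and the astrocyte list at 2.35% to 3.24% in astrocytes; the ependymal, mural and neuronal lists are higher in every astrocyte library than in any microglia library, and the choroid plexus ranges overlap. The lymphocyte list, at 0% in 4 astrocyte libraries, is not drawn.

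Markers of other brain cells were more frequent in the astrocyte sort. Ependymal markers, genes of the ciliated cells that line the ventricles, made up 0.0855% to 0.148% of the scaled counts in astrocytes against 0.000847% to 0.00229% in microglia, and all 8 were called higher in astrocytes. Mural markers of pericytes and smooth muscle took 0.0362% to 0.054% against 0.000697% to 0.00327%, and neuronal markers 0.0426% to 0.0616% against 0.00158% to 0.00428%. Map2 made up most of the neuronal sum in every astrocyte library, at 332 to 409 CPM. Of the 10 neuronal genes 9 were called higher in astrocytes, 3 of them with overlapping ranges. Oligodendrocyte markers overlapped between the sorts, at 0.103% to 0.419% in astrocytes and 0.0263% to 0.164% in microglia, and were higher in the astrocyte library of 6 of 6 animals. Markers of oligodendrocyte precursors took 0.00405% to 0.00745% against 0.00032% to 0.00144%, and endothelial markers, with 4 of 10 genes called and overlapping ranges, 0.00396% to 0.0165% against 0.0032% to 0.00913%. Border macrophage markers pointed the other way, at 0.0186% to 0.0364% in microglia and 0.00124% to 0.00336% in astrocytes, and 8 of 8 were called. With TMM scaling, each of these differences had the same sign in 6 of 6 animals and an exact sign-flip permutation p of 0.0312 (two-sided), the smallest that 6 pairs allow, or 0.0375 after adjustment over the 12 lists. Without that scaling the endothelial difference had the same sign in 5 of 6 animals and no longer passed (exact permutation p 0.0625). The choroid plexus list was at 0.0316% to 0.212% in microglia and 0.0529% to 0.121% in astrocytes, with an exact p of 0.75. Monocyte and neutrophil markers stood at no more than 0.0032% in any library, with an exact p of 0.531, and 4 of 9 lymphocyte markers in microglia and 7 of 9 in astrocytes had no count at all. The summed lymphocyte list was nonetheless higher in microglia in 6 of 6 animals (exact permutation p 0.0312, 0.0375 after adjustment), at 0.00011% to 0.0004% against 0% to 0.000352%. Of its 9 genes only Cd4 passed the filter, and it made up most of the sum in every microglia library, at 0.913 to 3.54 CPM. In astrocytes Cd4 had counts only in WT replicate 1, at 3.52 CPM. The part of these other cells in the differences below was not tested.

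The genes with the largest differences were taken among those at 50 CPM or more in the higher type. They had no overlap of the libraries and the same sign in 6 animals. On the microglia side they included receptor genes and Tnf. Adora3, the adenosine A3 receptor, was at 38.6, 57.2 and 69.3 CPM in microglia and 0, 0.146 and 1.22 CPM in astrocytes, a log2 fold change of 7.53 (SE 0.56). It was followed by Fam71a, Lrrc3, Tnfrsf11a (the receptor RANK), Tnf, Ccdc88b, Sp110, the IgG receptor gene Fcgr4, Nlrp1c-ps and Lrch4, down to 6.36. On the astrocyte side Rarres2, which encodes chemerin, stood first, at 0, 0.0751 and 0.462 CPM in microglia and 67.6, 87.6 and 119.5 CPM in astrocytes, a log2 fold change of -8.99 (SE 0.55). It is itself on the ependymal marker list. Wdr49, Nkain4, Ccdc81, Rgs22, B3galt2, Hsd11b1, Fam20a, the cilia gene Cfap57 and Npy, the gene of neuropeptide Y, followed, down to -7.62. Hsd11b1, whose product regenerates active glucocorticoid, was at 0, 0.0915 and 2.03 CPM in microglia and 46.2, 75.3 and 117 CPM in astrocytes. The largest edgeR adjusted p among these 20 genes was 3.56e-04, for Lrch4.

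Transcription factors that set lineage identity split without exception. All 14 tested factors of the myeloid lineage were higher in microglia, with a median of 5.0. Spi1, the gene of the pioneer factor PU.1, was at 115, 188 and 226 CPM in microglia and 2.64, 3.74 and 7.06 CPM in astrocytes, a log2 fold change of 5.4 (SE 0.22). Irf8, Runx1 and Ikzf1 lay between 5.4 and 5.82, inside the range of the markers. Cebpb (3.71), Maf (3.75), Cebpa (3.31) and Bhlhe41 (2.47) lay below that range, with astrocyte medians of 22.8, 14.3, 14.5 and 46.7 CPM. Sall1, a factor that represses macrophage genes in microglia, behaved likewise, at 676, 729.9 and 983 CPM in microglia and 77.1, 80.5 and 112 CPM in astrocytes. All 18 neural factors were higher in astrocytes, with a median of -5.56. Sox9, required for astrocyte fate, was at 1.99, 7.27 and 18.2 CPM in microglia and 341, 389 and 517 CPM in astrocytes, a log2 fold change of -5.8 (SE 0.32). Rfx4 (-7.48), Gli3 (-6.43), Emx2 (-6.29) and Sox2 (-5.82) went the same way. The nuclear factor I genes Nfia (-1.39, SE 0.12) and Nfix (-1.79, SE 0.15) were the least separated of this group, with microglia medians of 94.6 and 75.4 CPM.

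A binding word of PU.1 stood in a larger share of the promoters of microglia genes than of other promoters. The letters GAGGAAGT, searched on both strands over the 250 bases before each start in RefSeq promoters of GRCm38.p6, were found in 2.79% of all 27025 genes of that table. Symbols joined 13152 of the 17294 tested genes to a promoter, and 2.81% of these held the word. It stood in 7.92% of the matched genes past 4-fold on the microglia side (76 of 960), in 1.61% of those past 4-fold on the astrocyte side (36 of 2231) and in 2.67% of the alike genes (61 of 2282). Among the 9 matched microglia markers and the 10 matched myeloid factors no promoter held these letters in this window. These shares describe the letters, not binding. The stretches below are from 5 microglia genes described later, an IgG receptor, a Toll-like receptor, a complement component, a phosphatase of receptor signalling and a lysosomal protease, written 5′ to 3′ along the gene, with the word in capitals; ACTTCCTC is the same word read from the other strand.
Fcgr4 (chr1:171018862-171018925, plus strand): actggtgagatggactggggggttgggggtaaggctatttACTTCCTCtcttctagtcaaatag
Tlr1 (chr5:64933559-64933621, minus strand): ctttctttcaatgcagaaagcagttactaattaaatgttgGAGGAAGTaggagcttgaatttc
C1qc (chr4:136893062-136893149, minus strand): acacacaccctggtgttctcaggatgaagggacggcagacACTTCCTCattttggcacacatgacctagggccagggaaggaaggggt
Inpp5d (chr1:87620252-87620311, plus strand): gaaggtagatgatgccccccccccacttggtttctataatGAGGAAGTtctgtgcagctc
Ctsc (chr7:88277894-88277981, plus strand): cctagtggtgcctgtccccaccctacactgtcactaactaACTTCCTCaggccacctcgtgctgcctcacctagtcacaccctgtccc
All 5 genes were called higher in microglia, with log2 fold changes of 6.46 for Fcgr4, 6.07 for Tlr1, 5.21 for C1qc, 5.42 for Inpp5d and 4.97 for Ctsc.

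Genes that sense LPS were higher in microglia, apart from a core of signalling genes that was alike. Of 27 tested genes of this list, 22 were higher in microglia and 2 in astrocytes, and the median log2 fold change was 3.5 against -0.16 over all genes. Tlr4, the LPS receptor, was at 118, 142 and 169 CPM in microglia and 6.72, 9.9 and 12.2 CPM in astrocytes, without overlap, a log2 fold change of 3.94 (SE 0.2). Its co-receptor gene Cd14 was at 190.1, 256 and 287 CPM and 0, 9.51 and 15.1 CPM, a log2 fold change of 5.07 (SE 0.59). With Sall1 left out of the range of the microglia markers, Tlr4 lay below it and Cd14 inside it. Lbp, the secreted protein that loads LPS onto CD14, was higher in astrocytes, at 6.14, 8.0 and 21.4 CPM in microglia and 41.5, 80.7 and 111 CPM in astrocytes, a log2 fold change of -3.0 (SE 0.24). Ly96, the gene of MD-2, had few counts in either type, at 0.561, 2.01 and 4.39 CPM in microglia and 0, 0 and 1.59 CPM in astrocytes, and its call (edgeR adjusted p 0.0396) was lost without KO replicate 2 or 3 or without WT replicate 2 or 3, at 3.84 to 4.39 in place of 4.47. Among the other Toll-like receptors, 8 of 9 were higher in microglia, 7 of them in or above the marker range, from Tlr5 at 3.5 to Tlr1 at 6.07. Tlr3, the sensor of double-stranded RNA, was the exception, at 34.2, 59.3 and 84.8 CPM in microglia and 74.4, 86.4 and 97 CPM in astrocytes, a log2 fold change of -0.58 (SE 0.2) with an edgeR adjusted p of 0.0262. That call was lost without any 1 of the animals other than WT replicate 3, at -0.33 to -0.45.

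Downstream of the receptors the separation narrowed. The adaptor Myd88 was at 102, 119 and 128 CPM in microglia and 6.92, 12.1 and 23 CPM in astrocytes, a log2 fold change of 3.17 (SE 0.22). Ticam2, the TRAM adaptor of TLR4, differed more, at 5.27 (SE 0.57), and Ticam1, the TRIF adaptor, less, at 1.62 (SE 0.22). Irak1 (1.22) and Tab2 (1.27) were higher in microglia by little over 2-fold. Traf6, the ubiquitin ligase on which these signals converge, was at 23.4, 32.7 and 37.7 CPM in microglia and 14.9, 25.6 and 37.2 CPM in astrocytes, and its 95% interval ran from -0.13 to 0.77. Map3k7, the gene of the kinase TAK1, and Tab1 were likewise alike, with intervals from -0.01 to 0.59 and from -0.79 to 0.27. Small differences were nevertheless called without single animals, for Traf6 at 0.6 without KO replicate 1 and 0.62 without WT replicate 2, and for Map3k7 at 0.42 to 0.53 without any of the animals but WT replicate 1. In these settings the median shift over all genes was 0.09 to 0.23, also toward microglia. Map3k7 was called by limma voom too, at 0.31, and without the abundant non-coding transcripts, at 0.38. The median shifts under those alternatives were 0.02 and 0.08. Over the 12 adaptors and kinases the median was 1.44, against 5.32 over the other Toll-like receptors.

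NF-κB is held in the cytoplasm by inhibitor proteins that its own activity replenishes, so its inhibitors are also among its targets. Of 19 tested genes of the pathway 17 were higher in microglia and 0 in astrocytes, with a median of 2.41. All 5 subunits were higher in microglia, Rela by 1.24 (SE 0.17), Nfkb1 by 2.09 (SE 0.26), Nfkb2 by 2.47 (SE 0.39), Relb by 3.23 (SE 0.37) and Rel by 3.92 (SE 0.24). None of the 5 reached the range of the markers other than Sall1. Nfkb1 was at 79.4, 125 and 152 CPM in microglia and 13.7, 31.1 and 41.9 CPM in astrocytes. All 8 inhibitors and feedback genes were higher in microglia too, with a median of 3.92, and the separation ran from 0.68 for Tnip1, whose call was lost without WT replicate 1 (0.69) and which stood at 1.03 without WT replicate 2, to 6.17 for Nfkbid. Tnfaip3, the gene of the feedback enzyme A20, was at 338, 493 and 816 CPM in microglia and 7.74, 9.63 and 22.1 CPM in astrocytes, a log2 fold change of 5.42 (SE 0.22). Nfkbia, the gene of IκBα, was at 303, 564 and 914 CPM and 26.1, 44.8 and 76.7 CPM, at 3.51 (SE 0.24). Among the kinases Ikbkb was higher in microglia (1.52, SE 0.15), while Chuk, the gene of IKKα, was alike, with an interval from -0.55 to 0.05.

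Cytokines and the enzymes of lipid mediators went mostly to microglia. Of 23 tested, 17 were higher in microglia and 4 in astrocytes. Tnf was at 103, 162 and 248 CPM in microglia and 0, 1.73 and 7.19 CPM in astrocytes, without overlap, a log2 fold change of 6.5 (SE 0.5). Il1b was at 196, 322 and 424 CPM and 2.0, 9.57 and 17.8 CPM, at 5.23 (SE 0.37), and Il1a followed at 5.31 (SE 0.35). All 6 animals had the higher level in the microglia library for each of these 3 genes. Osm, the gene of the IL-6 family cytokine oncostatin M, was at 40.2, 56 and 121 CPM in microglia and 0, 0.862 and 2.82 CPM in astrocytes, a log2 fold change of 6.14 (SE 0.67). Csf1, a growth factor of microglia, was present in both and higher in microglia, at 183, 209.9 and 435 CPM against 49.5, 78.2 and 82.8 CPM, at 1.7 (SE 0.18). Il6 did not pass the test, with medians of 0.895 and 0 CPM. On the astrocyte side Il33, a nuclear alarmin, was at 0, 0.635 and 2.15 CPM in microglia and 18.3, 25.3 and 39.6 CPM in astrocytes, a log2 fold change of -5.39 (SE 0.66). Il18 was detected in both types and higher in astrocytes, at 18, 22.2 and 30.6 CPM and 43.6, 60.1 and 94.2 CPM, at -1.5 (SE 0.15). The prostaglandin enzymes divided, with Ptgs1 (4.93), Ptgs2 (3.89) and Hpgds (4.72) higher in microglia and Ptges, the prostaglandin E synthase, higher in astrocytes (-5.2, SE 0.69). Alox5 and Alox5ap, which start leukotriene synthesis, were higher in microglia at 6.03 and 5.57. Il10 and Ifnb1 stayed below the filter, with 10 and 12 counts in all 6 microglia libraries together and none in astrocytes.

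Most chemokine genes were higher in microglia, with a few ligands and receptors on the astrocyte side. Of 19 tested ligands, 12 were higher in microglia and 5 in astrocytes. Ccl3, an inflammatory macrophage chemokine, was at 228, 342 and 573 CPM in microglia and 4.21, 9.55 and 27.3 CPM in astrocytes, a log2 fold change of 5.06 (SE 0.38). Ccl2 (5.98), Ccl4 (5.44), Ccl12 (5.3) and Cxcl16 (5.22) went with it. Cxcl10, an interferon-induced ligand of T cells, differed less, at 17.9, 24.8 and 54.5 CPM against 2.03, 7.0 and 11.1 CPM, a log2 fold change of 2.34 (SE 0.38). The ligands higher in the astrocyte libraries included Cxcl14, at 1.83, 3.24 and 8.23 CPM in microglia and 223, 300.0 and 428 CPM in astrocytes (-6.43, SE 0.32). The others were Cx3cl1, the membrane-bound fractalkine (-4.16, SE 0.49), Cxcl12 (-2.22, SE 0.63), Ccl25 (-2.09, SE 0.79) and Cxcl5. Cxcl5 had no count in any microglia library and 0 to 2.46 CPM in astrocytes. The call of Ccl25 was lost without any 1 of the animals but WT replicate 1, at -1.45 to -2.08, and that of Cxcl5 without KO replicate 1, 2 or 3 or WT replicate 3. Of the 8 tested receptors, 6 were higher in microglia. The CXCL12 receptor genes Cxcr4 (-4.04, SE 0.71) and Ackr3 (-3.41, SE 0.61) were higher in astrocytes.

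Cytokine receptors were higher in microglia for 22 of 25 tested genes, with a median of 3.36, and higher in astrocytes for 2. Osmr, the signal chain for oncostatin M, was at 0, 0.072 and 0.962 CPM in microglia and 15, 20.4 and 25.7 CPM in astrocytes, without overlap, a log2 fold change of -6.73 (SE 0.76). Il1r1, the IL-1 receptor, was at 1.38, 2.46 and 6.39 CPM and 3.61, 7.3 and 8.92 CPM, ranges that overlapped. Its log2 fold change of -1.24 (SE 0.5) passed with an edgeR adjusted p of 0.0498 and lost its call in 11 of 14 alternative settings, among them the removal of each animal in turn, at -0.8 to -1.29. Il1rap, its accessory chain, was alike, with an interval from -0.76 to 0.24, and the decoy Il1r2 was higher in microglia (5.17, SE 0.6). Of the TNF receptors, Tnfrsf1b (6.28, SE 0.34) was higher in microglia by far more than Tnfrsf1a (1.67, SE 0.16), although the difference between both was not tested. The interferon receptor chains Ifnar1 (0.66, SE 0.14) and Ifnar2 (1.81, SE 0.18) were higher in microglia, and so were Ifngr1 (3.13, SE 0.18) and Ifngr2 (3.36, SE 0.15). Ifnar1 was at 73.9, 97.3 and 131 CPM in microglia and 56.9, 63.1 and 65.4 CPM in astrocytes, and was at the same time alike by the interval rule.

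**Figure D2:**
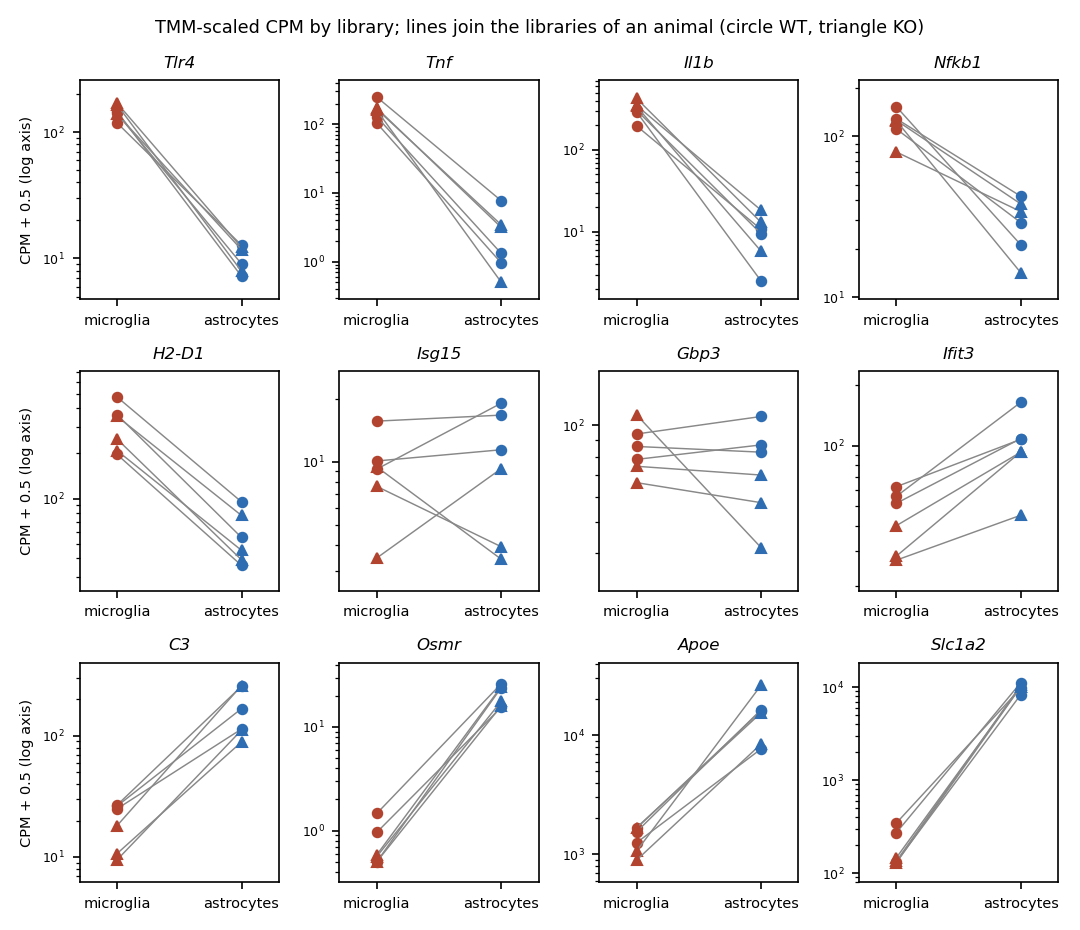
TMM-scaled CPM plus 0.5 on log axes for 12 genes, with microglia libraries in red and astrocyte libraries in blue, circles for WT and triangles for KO, and a line for each animal. Tlr4, Tnf, Il1b, Nfkb1 and H2-D1 fall from microglia to astrocytes in 6 of 6 animals and Ifit3, C3, Osmr, Apoe and Slc1a2 climb in 6 of 6, while the lines of Isg15 and Gbp3 cross.

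The 52 ligand and receptor pairs were textbook pairings, chosen with earlier results of these data known. Of these, 9 had the ligand gene higher in astrocytes and the receptor gene higher in microglia, and 6 had the reverse. Another 10 pairs had both genes higher in microglia and 13 had both higher in astrocytes. Over all tested genes, 27.9% were called higher in microglia and 34.5% higher in astrocytes. Whether the counts of pairs exceed what these shares would give was not tested. The first 9 joined Il34 to Csf1r, Cx3cl1 to Cx3cr1, Cd200 to Cd200r1, Il33 to Il1rl1, C3 to C3ar1 and to Itgam, Hc to C5ar1, Apoe to Trem2 and Tgfb2 to Tgfbr2. Neuronal markers, among other marker lists, were also higher in the astrocyte libraries. Which cells of that sort held the RNA of ligands such as Il34, Cx3cl1 and Cd200 was not tested. Il34, the second ligand of the CSF1 receptor, was low, at 0, 0.0385 and 0.491 CPM in microglia and 0.388, 2.88 and 5.74 CPM in astrocytes. Cd200, which restrains myeloid cells, was at 0, 0.29 and 1.54 CPM and 4.05, 6.5 and 10.3 CPM (-4.85, SE 1.12), and its receptor gene Cd200r1 at 2.5, 4.51 and 10.2 CPM and 0, 0.102 and 0.728 CPM (5.05, SE 1.06). Il1rl1, the IL-33 receptor, was at 7.01, 10.9 and 14.9 CPM in microglia and 0, 0.197 and 0.689 CPM in astrocytes (5.61, SE 0.82). The 6 pairs from microglia to astrocytes were Il1a and Il1b with Il1r1, Osm with Osmr, Pdgfb with Pdgfrb, Spp1 with Cd44 and Sema4d with Plxnb1. Besides Il1r1, Cd44 lost its call without 1 animal, WT replicate 2, at -0.8. Pdgfb was at 118, 142 and 357 CPM in microglia and 0.637, 2.85 and 7.73 CPM in astrocytes (6.04, SE 0.36). Pdgfrb, at 1.09, 2.35 and 5.92 CPM and 86.9, 118 and 142 CPM (-5.56, SE 0.39), is also on the mural marker list that was higher in the astrocyte libraries. Plxnb1, the receptor of semaphorin 4D, was at 4.32, 11 and 26.6 CPM in microglia and 337, 380.0 and 411 CPM in astrocytes (-5.12, SE 0.37). RNA levels say nothing on whether a pair met.

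**Figure D3:**
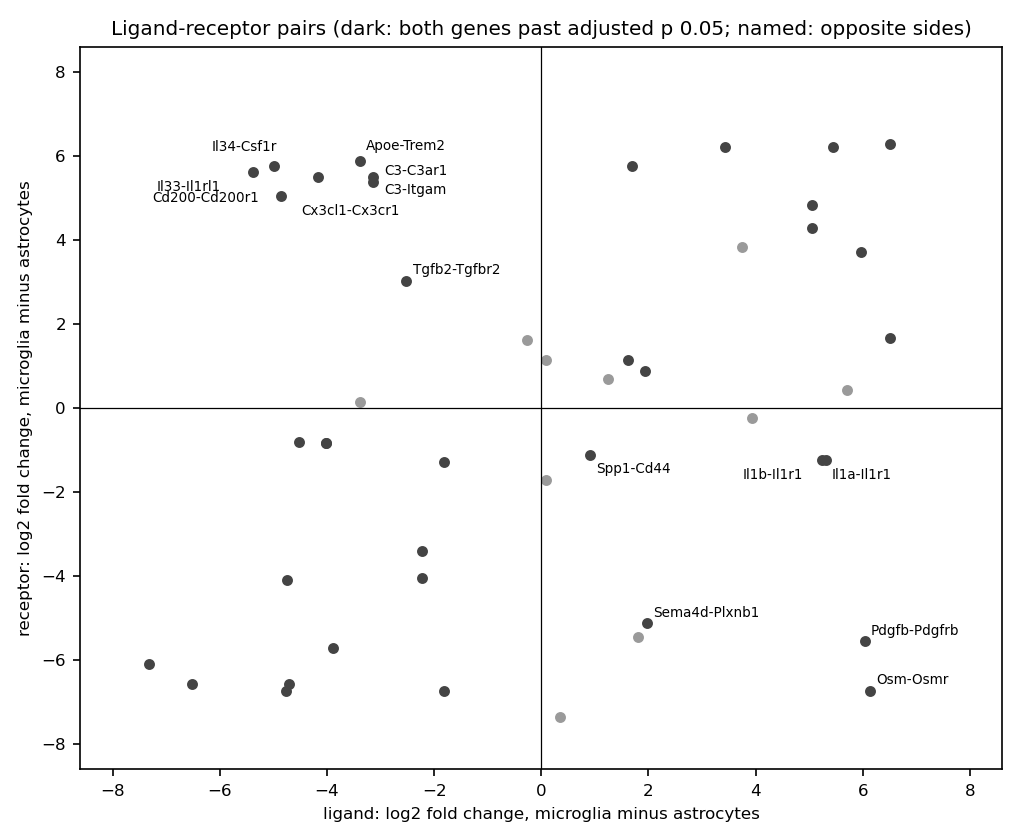
Log2 fold change of the receptor gene against that of the ligand gene, microglia minus astrocytes, for the pairs with both genes tested and a count in both types. Dark points have both genes past an adjusted p of 0.05, and the named points lie on opposite sides, such as Il33 at -5.39 with Il1rl1 at 5.61 and Osm at 6.14 with Osmr at -6.73.

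Most interferon-responsive genes also differed between the cell types, by less at the median than the LPS-sensing and NF-κB genes. Of 47 tested, 39 were called, against 62.5% of all genes, and 3 were alike, against 16.2%. Of the 47, 33 were higher in microglia, 6 were higher in astrocytes and 8 did not pass, and the median log2 fold change, over genes of both signs, was 1.31, against 3.5 for LPS sensing and 2.41 for NF-κB. The list's median lay between 0.91 and 1.56 in each of the 6 animals. Of the 33 genes on the microglia side, 2 lay in or above the range of the microglia markers other than Sall1, against 11 of 22 for LPS sensing and 14 of 21 for the phagocytic genes. All 7 sensors and factors were higher in microglia by moderate amounts, Stat2 by 1.59 (SE 0.18), Irf9 by 1.02 (SE 0.19) and Irf7 by 1.41 (SE 0.25). Stat2 was at 75.1, 98 and 108 CPM in microglia and 15.3, 34 and 44.9 CPM in astrocytes.

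The effectors spread over both sides. Ifit3, an RNA-binding antiviral gene, was higher in astrocytes, at 26.4, 45.3 and 62 CPM in microglia and 44.6, 99.9 and 164 CPM in astrocytes, a log2 fold change of -1.19 (SE 0.17) with 6 of 6 animals in that direction. Ifit1 was at 9.55, 17.4 and 35.5 CPM and 15.2, 30.4 and 74.4 CPM, at -0.89 (SE 0.21), and the call was lost without WT replicate 2, at -0.54. The ranges of both genes overlapped between the types. Ifit3b went further (-3.27, SE 0.26), but Ifit3 and Ifit3b are close copies between which the counting may have divided reads. Ifitm3, which blocks viral entry, was at 28.5, 45.1 and 57.1 CPM in microglia and 67.5, 91.7 and 130.5 CPM in astrocytes (-1.08 (SE 0.22), and -0.7 without KO replicate 2), and Cmpk2 (-1.56, SE 0.29) and Ifi44 (-4.27, SE 0.89) completed the astrocyte side. Isg15, a ubiquitin-like modifier, did not pass, at 2.98, 8.85 and 15.2 CPM in microglia and 2.93, 9.86 and 18.6 CPM in astrocytes, with an interval from -1.08 to 0.97 that does not bound it within 2-fold. Gbp3 was alike, at 65.9, 81.7 and 107 CPM and 41.2, 75.8 and 106 CPM, with an interval from -0.23 to 0.67, and so were Gbp2 and Oasl2. Gbp2 was nevertheless called higher in astrocytes by limma voom (-0.65), and Oasl2 was called without WT replicate 3 (0.58). On the microglia side Mx1, a dynamin-like antiviral GTPase, was at 36.4, 47.5 and 64.5 CPM and 1.42, 2.36 and 6.66 CPM (4.24, SE 0.27), and Oas1a (4.79, SE 0.82), Ifi204 (4.77, SE 0.24), Trim30a (3.79, SE 0.21) and Bst2 (2.5, SE 0.49) went with it. The edgeR adjusted p of the named called genes was at most 0.00319, for Ifit1.

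**Figure D4:**
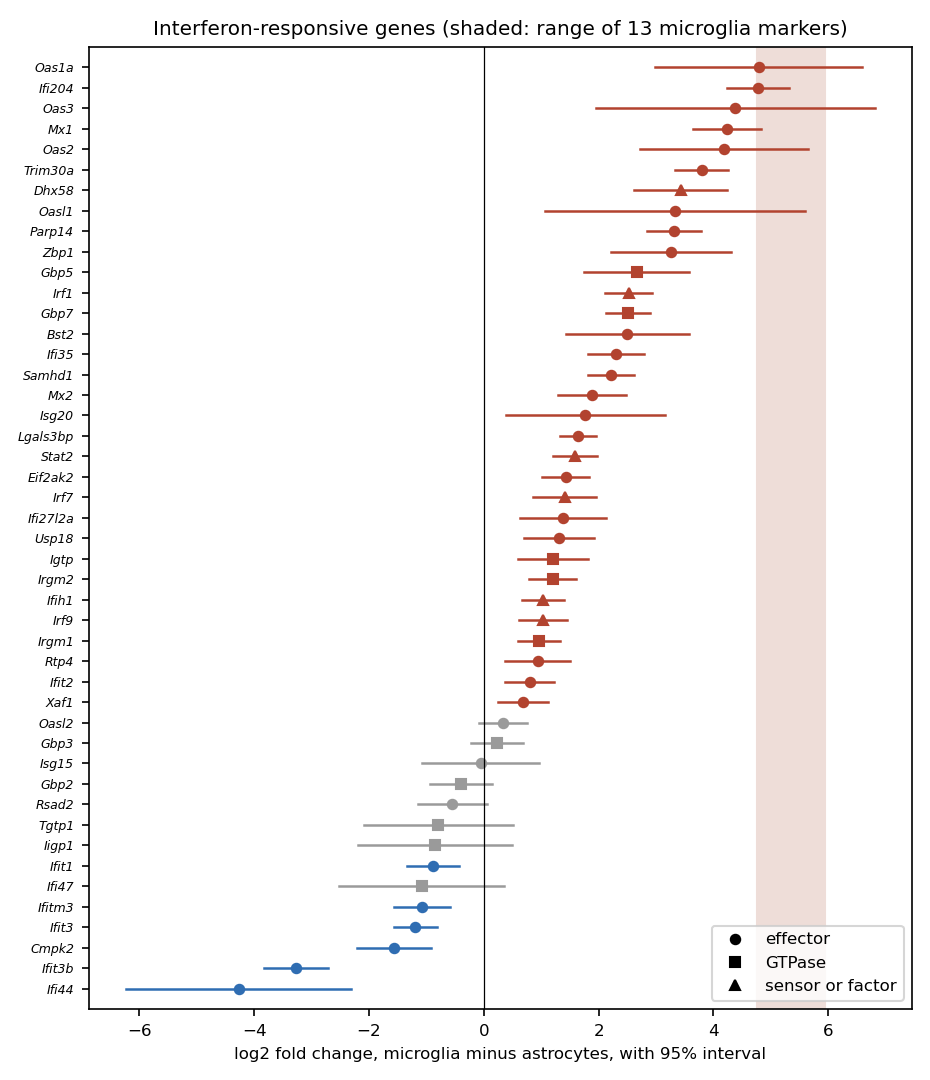
Log2 fold change, microglia minus astrocytes, with its 95% interval for 46 of the 47 tested interferon-responsive genes, in red or blue where called and grey where not. The gene not drawn is called higher in microglia. Of the genes drawn, sorted by log2 fold change, 6 are called higher in astrocytes, 8 are not called and 32 are called higher in microglia. Among the point estimates, 2 (Ifi204 and Oas1a) lie in the shaded range of 13 microglia markers, 4.75 to 5.94.

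The ISRE, searched in its usual spelling on either strand, was found before the start of 0.796% of all 27025 genes and of 14 of the 35 interferon-responsive genes with a promoter in the table (40%). It occurred on all sides of the comparison, in 7 of 22 matched genes higher in microglia, 3 of 6 higher in astrocytes and 4 of 7 that did not pass. The 6 stretches that follow are ordered from the astrocyte side to the microglia side, with the element in capitals. It reads GAAA, any 2 bases and GAAAC, or on the other strand GTTTC, any 2 bases and TTTC.
Ifit3 (chr19:34583332-34583422, plus strand): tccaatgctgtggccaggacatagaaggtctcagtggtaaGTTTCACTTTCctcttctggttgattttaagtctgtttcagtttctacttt
Ifit1 (chr19:34640744-34640834, plus strand): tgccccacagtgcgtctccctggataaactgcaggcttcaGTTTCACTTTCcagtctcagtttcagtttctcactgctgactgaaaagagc
Isg15 (chr4:156200846-156200936, minus strand): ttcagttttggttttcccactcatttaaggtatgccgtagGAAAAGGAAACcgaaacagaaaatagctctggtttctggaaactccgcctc
Gbp3 (chr3:142559958-142560043, plus strand): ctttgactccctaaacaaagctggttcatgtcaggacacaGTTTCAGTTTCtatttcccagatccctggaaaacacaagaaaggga
Bst2 (chr8:71537552-71537642, minus strand): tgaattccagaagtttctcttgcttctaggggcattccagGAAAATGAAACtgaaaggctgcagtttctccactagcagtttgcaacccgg
Oas1a (chr5:120907526-120907585, minus strand): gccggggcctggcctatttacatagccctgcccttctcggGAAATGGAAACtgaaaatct
The log2 fold change was -1.19 for Ifit3, -0.89 for Ifit1 and -0.06 for Isg15. It was 0.22 for Gbp3, 2.5 for Bst2 and 4.79 for Oas1a. Each stretch holds a match to the element, but the 2 free bases are not the same in all 6. Any part of the element in these differences was not tested.

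Complement genes lay on both sides, with 11 of 24 tested higher in microglia, 9 in astrocytes and 4 not called. The genes of C1q, which starts the classical pathway, were higher in microglia, with C1qa at 1501, 1964 and 2433 CPM and 15.9, 38.9 and 61.2 CPM (5.7, SE 0.23) and C1qb and C1qc at 5.31 and 5.21. The central component C3 was higher in astrocytes, at 8.97, 21 and 26.3 CPM in microglia and 88.4, 140.0 and 259 CPM in astrocytes, without overlap and with 6 of 6 animals in that direction, a log2 fold change of -3.13 (SE 0.23). Masp1 (-3.39, SE 0.44) and C1s1 (-3.62, SE 0.9), proteases of the lectin and classical pathways, went with C3. C4b was at 175, 237 and 421 CPM and 255, 351 and 438 CPM, overlapping, and its small difference (-0.48 (SE 0.18), edgeR adjusted p 0.0347) lost its call in 6 of 14 settings, among them the removal of any 1 animal but WT replicate 1, at -0.18 to -0.31. Hc, the gene of C5, had no count in any microglia library and was at 1.94 to 10.3 CPM in astrocytes. All 6 receptor genes were higher in microglia and inside the marker range, among them C3ar1 at 227, 341 and 421 CPM and 2.73, 8.73 and 10.1 CPM (5.5, SE 0.27) and Itgam, a chain of complement receptor 3, at 5.39 (SE 0.31). The regulators split, with Clu, at 26.7, 64.7 and 136 CPM in microglia and 2032, 2236 and 2690.3 CPM in astrocytes (-5.19, SE 0.29), Serping1 (-5.58, SE 0.38), Cd55 (-2.98, SE 0.29) and Cd59a (-2.89, SE 0.39) on the astrocyte side and the other 2 of the 6 tested on the microglia side.

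Antigen presentation lay with microglia. All 13 class I genes were higher there, with a median of 2.45 and none in the marker range. H2-D1 was at 196, 301 and 476 CPM in microglia and 35.2, 49.5 and 94.5 CPM in astrocytes (2.45, SE 0.14), and B2m, the light chain, was at 245, 390.2 and 575 CPM and 37.6, 68 and 74.5 CPM (2.7, SE 0.19). Class I chains are near copies of each other, so the division of reads among them is uncertain. Of 13 genes of class II and co-stimulation, 11 were higher in microglia. Cd74, the invariant chain, was at 28.7, 65.1 and 75.6 CPM in microglia and 0, 6.4 and 10.4 CPM in astrocytes (3.59, SE 0.52), and Cd86 was at 78.4, 107 and 133 CPM and 0, 2.49 and 5.56 CPM (5.74, SE 0.53). The class II chain gene H2-Aa was low in both and did not pass, at 0.401, 3.16 and 6.72 CPM and 0.536, 2.06 and 3.36 CPM.

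Genes of engulfment were found on both sides. Of 29 tested genes, 21 were higher in microglia and 5 in astrocytes, with a median of 4.44. Microglia had the receptors and kinases that signal through ITAM motifs: Fcgr1 was at 321, 389 and 543 CPM and 3.28, 8.78 and 11.6 CPM (5.73, SE 0.26), Trem2 at 96, 152 and 175 CPM and 0, 2.67 and 8.45 CPM (5.89, SE 0.51), and the adaptor Tyrobp at 5.04 (SE 0.31). Inpp5d, the gene of the phosphatase SHIP1 that damps these receptors, was at 622, 696 and 845 CPM and 12, 16.9 and 21.8 CPM (5.42, SE 0.17). Astrocytes had Megf10, at 0.802, 3.69 and 6.52 CPM in microglia and 146, 173 and 187 CPM in astrocytes (-5.88, SE 0.37), Adgrb1 (-5.9, SE 0.37), the adaptor Gulp1 (-4.21, SE 0.67) and the bridging ligand Mfge8, at 8.1, 12.7 and 26.3 CPM and 420.4, 463 and 574 CPM (-5.03, SE 0.24). The TAM receptors split, with Mertk higher in microglia (1.15, SE 0.15) and Axl higher in astrocytes (-1.72, SE 0.21), each with medians of at least 39.0 CPM in the lower type. Their ligand Gas6 was alike, at 160.4, 191 and 349 CPM and 174, 192 and 219.8 CPM, with an interval from -0.29 to 0.47, and so was the scavenger receptor Lrp1, from -0.28 to 0.57, although it was called without KO replicate 2, at 0.47. In the lysosome 19 of 26 genes were higher in microglia and 2 in astrocytes, with a median of 2.26. Cathepsin S, Ctss, was at 3870.4, 4865 and 5851 CPM and 67, 125 and 193 CPM (5.28, SE 0.23), and cathepsin D, Ctsd, was at 1459.8, 2072 and 2579.8 CPM and 173, 236 and 284 CPM (3.09, SE 0.14). Lamp1, a membrane protein of every lysosome, was alike, with an interval from -0.14 to 0.43, and was called without KO replicate 2 (0.37) or WT replicate 2 (0.36), and cathepsin O, Ctso, was higher in astrocytes (-1.23, SE 0.16).

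Lists named for a reactive state of 1 cell type were not confined to that type. Of 14 tested genes of the disease-associated microglia list, 7 were higher in microglia, 4 were higher in astrocytes and 3 did not pass. These counts depend on the make-up of the list. It does not hold Trem2, Tyrobp, Clec7a or Ctsd, which were counted in other lists here and were higher in microglia. Apoe, the main lipid carrier of the brain, was at 893, 1397 and 1674 CPM in microglia and 7669, 15727 and 26269.7 CPM in astrocytes (-3.39, SE 0.25), and Gpnmb (-5.19, SE 0.9), Ank (-2.91, SE 0.17) and Igf1 (-1.81, SE 0.51) were also higher in astrocytes, the last not without KO replicate 3 (-1.45, no longer called). Cst7, a cystatin, was at 4.39, 8.02 and 12.5 CPM in microglia and 0, 0.0339 and 0.383 CPM in astrocytes (6.71, SE 0.97), and Itgax, Lpl, Lyz2, Cd52, B2m and Spp1 went with it. The pan-reactive astrocyte list had 9 of 12 genes higher in astrocytes. Serpina3n, a secreted protease inhibitor, was at 2.73, 6.65 and 17.7 CPM in microglia and 298, 502 and 732 CPM in astrocytes (-6.09, SE 0.28), and Vim, the intermediate filament gene, was at 17.6, 21.9 and 34 CPM and 399, 595 and 828.6 CPM (-4.72, SE 0.23). Lcn2, the gene of the siderophore-binding lipocalin that is widely used as a mark of LPS-reactive astrocytes, was at 13.7, 16.8 and 21.4 CPM in microglia and 7.19, 22.2 and 33.7 CPM in astrocytes, alike by an interval from -0.9 to 0.48. Of the genes listed as A1-specific, 6 of 11 were higher in microglia, among them H2-D1, Psmb8, Fkbp5 (1.77), Ggta1 (1.6) and Srgn, at 231, 278 and 368 CPM and 2.09, 10 and 17.5 CPM (4.86, SE 0.34). Serping1, Fbln5 (-5.05, SE 0.51) and Amigo2 (-4.81, SE 0.57) were higher in astrocytes. Of those listed as A2-specific, 4 of 11 were higher in microglia, including Cd14, and 5 in astrocytes, including Cd109, at 0, 0.477 and 0.882 CPM and 24.8, 66.1 and 86.9 CPM (-6.96, SE 0.51), and Tm4sf1 (-6.76, SE 0.51).

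**Figure D5:**
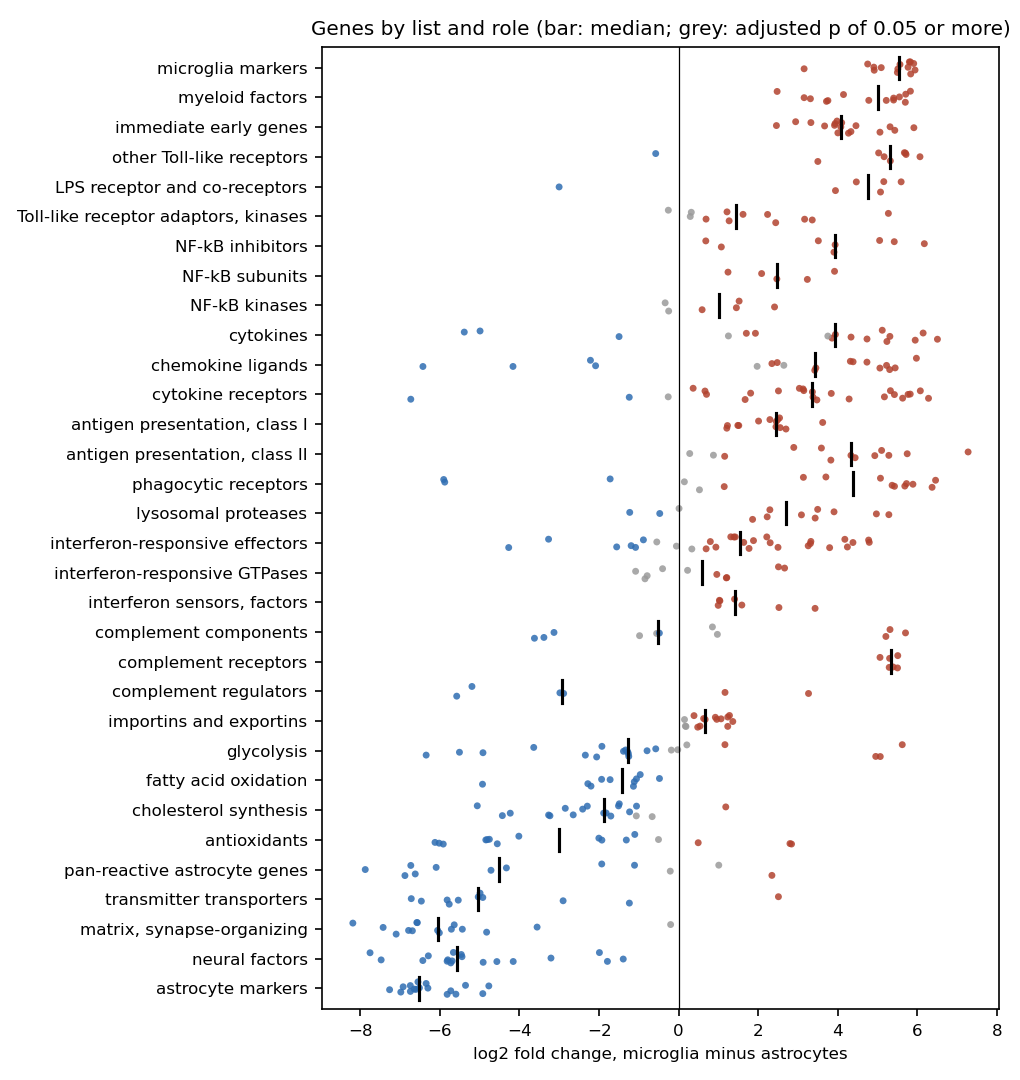
Log2 fold change, microglia minus astrocytes, of each tested gene with a count in both types, by list and role; red and blue points are called, grey points are not, and bars mark medians. Toll-like receptors other than TLR4 centre at 5.32, NF-κB subunits at 2.47, interferon-responsive effectors at 1.53 and transmitter transporters at -5.04, while glycolysis centres at -1.26 with 4 genes on the microglia side.

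Transmitter handling lay with astrocytes, with 25 of 29 tested genes higher there and 3 in microglia, and a median of -4.99. The GABA transporter gene Slc6a11 was at 5.65, 10.1 and 22.6 CPM in microglia and 1120.2, 1220.5 and 1355 CPM in astrocytes (-6.72, SE 0.3). Glul, glutamine synthetase, was at 340.1, 460.1 and 563 CPM and 1675, 2308 and 2722 CPM (-2.34, SE 0.14), closer to 0 than any of the 17 astrocyte markers. The genes of the other side included the taurine transporter Slc6a6 (2.51, SE 0.16) and Got2 (1.11, SE 0.21). All 9 receptors were higher in astrocytes, from -2.36 for Gabbr1 to -7.25 for Gria2. Among water, ion and junction genes 17 of 27 were higher in astrocytes and 7 in microglia. The potassium channel gene Kcnj10 was at 16.9, 25.3 and 44.6 CPM in microglia and 485, 619 and 709.8 CPM in astrocytes (-4.59, SE 0.21), and the water channel gene Aqp4 at 3.72, 7.56 and 11.6 CPM and 791, 929 and 993 CPM (-6.92, SE 0.27). Microglia had channels of their own: Kcnk6 (5.34, SE 0.34), Kcnk13, at 51.2, 60.1 and 109 CPM and 0, 0.988 and 8.49 CPM (5.84, SE 0.71), and the proton channel Hvcn1 (6.15, SE 0.61).

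Purine receptors were divided, with 7 of 12 higher in microglia and 5 in astrocytes. Microglia had P2ry12, at 322, 437 and 529 CPM and 6.99, 12.2 and 26.8 CPM (5.09, SE 0.3), P2ry6 (5.88, SE 0.53), P2rx7 (2.11, SE 0.14) and P2rx4 (2.64, SE 0.32). Astrocytes had P2ry1, at 0, 0.0769 and 0.664 CPM and 11.7, 15.7 and 19.1 CPM (-6.82, SE 0.8), Adora2b (-7.39, SE 0.95) and Adora1 (-3.76, SE 0.28). The ectoenzymes that break down extracellular ATP were split too, with Entpd1 higher in microglia, at 208, 268 and 319 CPM and 18, 24.5 and 30.1 CPM (3.46, SE 0.14), and Entpd2 higher in astrocytes, at 0, 0.122 and 2.1 CPM and 42.6, 54 and 66.7 CPM (-7.51, SE 0.77).

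Lipid and energy metabolism leaned to astrocytes. In cholesterol synthesis 16 of 19 genes were higher in astrocytes and 1, Ebp (1.18, SE 0.3), in microglia, with a median of -1.88. Sqle, an early committed enzyme, was at 1.74, 2.91 and 6.03 CPM in microglia and 55.9, 64.3 and 79.6 CPM in astrocytes (-4.43, SE 0.25). The efflux transporter Abcg1 was higher in microglia, at 131, 168 and 190.4 CPM and 10.7, 17.5 and 30.2 CPM (3.21, SE 0.17). All 10 genes of fatty acid oxidation were higher in astrocytes, with a median of -1.43, among them Cpt1a, whose product admits fatty acids to mitochondria, at 30, 38.4 and 58.9 CPM and 103, 124 and 164 CPM (-1.72, SE 0.17). Glycogen genes went the same way for 7 of 8, including Pygm, at 2.57, 5.09 and 10.5 CPM and 237, 291 and 408 CPM (-5.82, SE 0.35).

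In glycolysis 14 of 21 genes were higher in astrocytes, such as Aldoc (-6.35, SE 0.3), Pfkm (-4.92, SE 0.31) and the glucose transporter Slc2a1 (-2.35, SE 0.2). The hexokinase genes were divided, since Hk1 was higher in astrocytes, at 19.5, 25.5 and 52.6 CPM and 104, 122 and 161 CPM (-2.06, SE 0.22), and Hk2 in microglia, at 429, 479.8 and 705 CPM and 6.37, 17.8 and 23.7 CPM (4.95, SE 0.24), with Hk3 alongside (5.62, SE 0.58). The lactate genes were divided likewise, with Ldha (1.16, SE 0.14) and the exporter Slc16a3 (5.07, SE 0.64) higher in microglia and Ldhb (-1.39, SE 0.19) and Slc16a1 (-1.93, SE 0.17) higher in astrocytes. Gapdh was alike, at 330.3, 439.6 and 534 CPM and 412, 505 and 646 CPM, with an interval from -0.48 to 0.12. Acod1, which makes the antimicrobial metabolite itaconate, was at 2.57, 7.23 and 14.4 CPM in microglia and 0, 0.0339 and 0.383 CPM in astrocytes (6.13, SE 0.97).

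Genes of oxidant production and of antioxidant defence lay mostly on opposite sides. Of 7 NADPH oxidase genes, the 6 of the phagocyte oxidase were higher in microglia, for example Ncf1, at 373, 428 and 558 CPM and 4.37, 13.1 and 18.2 CPM (5.22, SE 0.26), and Cybb (3.95, SE 0.59). The other was Nox4, the gene of a separate oxidase, which had no count in any microglia library and 0 to 1.36 CPM in astrocytes, and whose call was lost without any 1 animal but KO replicate 2. Of 16 antioxidant genes, 12 were higher in astrocytes. The metallothionein gene Mt1 was at 45.3, 50.4 and 64.9 CPM in microglia and 777, 1574 and 3125 CPM in astrocytes (-4.81, SE 0.29), and the peroxiredoxin gene Prdx6 was at 10.3, 15.5 and 18.8 CPM and 328, 389.8 and 605 CPM (-4.76, SE 0.21). Hmox1, heme oxygenase, was higher in microglia, at 27.6, 52.2 and 105 CPM and 3.88, 7.62 and 12.4 CPM (2.8, SE 0.3), and so was Gpx1 (2.84, SE 0.32).

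Matrix and synapse-organizing genes were higher in astrocytes for 14 of 15, with a median of -6.06. Sparcl1, the gene of hevin, which promotes synapse formation, was at 67, 80.9 and 156 CPM in microglia and 6257, 10089 and 16076 CPM in astrocytes (-6.69, SE 0.34). Its antagonist Sparc was alike, at 836, 1005 and 1262 CPM and 846, 1198 and 1433 CPM, with an interval from -0.52 to 0.11. Of 7 ligands of the TGF-β family, 6 were higher in astrocytes and 1 in microglia, with Tgfb1 higher in microglia, at 133, 174 and 203 CPM and 0.273, 5.92 and 10.9 CPM (5.05, SE 0.46), and Tgfb2 in astrocytes, at 3.49, 8.85 and 14.8 CPM and 31.9, 42.9 and 59.3 CPM (-2.52, SE 0.31). Of 12 receptors and activators, 4 were higher in microglia, 5 in astrocytes and 3 were not called. The receptor genes Tgfbr1, at 471, 608 and 784 CPM and 22, 32 and 43.2 CPM (4.28, SE 0.21), and Tgfbr2 (3.03, SE 0.15) were higher in microglia, and the receptor genes for bone morphogenetic proteins Bmpr1a (-1.79, SE 0.17) and Bmpr1b (-6.63, SE 0.55) in astrocytes. Of the carriers and activators of latent TGF-β, Nrros was higher in microglia (3.78, SE 0.17) and Itgb8 in astrocytes, at 7.48, 18 and 33.2 CPM and 348, 386 and 426 CPM (-4.51, SE 0.27), with the latent TGF-β binding protein genes Ltbp1 (-5.28, SE 0.55) and Ltbp3 (-2.6, SE 0.38).

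Immediate early genes, which respond within minutes to many stimuli and are also known to be induced while tissue is dissociated, were all on the microglia side. All 17 tested were higher there, with a median of 4.08 and no overlap of the libraries. Fos was at 477, 1043 and 1281 CPM in microglia and 29.5, 48.4 and 61 CPM in astrocytes (4.33, SE 0.23), Atf3 was at 437, 744 and 1285 CPM and 3.46, 14.9 and 38.8 CPM (5.91, SE 0.3), and Zfp36, which destabilises Tnf mRNA, was at 1009, 1403 and 1983 CPM and 15.7, 36.2 and 56 CPM (5.43, SE 0.25). Of the 17, 4 lay in the range of the microglia markers. The part of tissue handling in the levels of these genes was not tested. Glucocorticoid-responsive genes did not share a direction, with 5 of 10 higher in each type. Klf9 was higher in astrocytes, at 1.91, 4.81 and 8.48 CPM and 61.4, 104 and 115 CPM (-4.43, SE 0.27), as was Tsc22d3, the gene of GILZ (-1.65, SE 0.19), while Sgk1 (3.77, SE 0.24) and Fkbp5 (1.77, SE 0.16) were higher in microglia. The receptor gene Nr3c1 was at 129, 145 and 176 CPM and 88.9, 105 and 124 CPM and was both called (0.5, SE 0.14) and alike by its interval.

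The nuclear transport genes to which Kpna4 belongs differed little. Of 15 tested importins and exportins 12 were higher in microglia and 0 in astrocytes, but the median was 0.67, none went past 4-fold and 6 were alike. Kpnb1, the gene of importin β1, was at 276, 292 and 378 CPM in microglia and 83.7, 127 and 135 CPM in astrocytes (1.36, SE 0.14), and Kpna2 was at 14.5, 27.7 and 34.7 CPM and 7.5, 10.8 and 14.8 CPM (1.28, SE 0.23). Among proliferation genes, 5 of 15 were higher in microglia and 0 in astrocytes. These 5 were Pcna and the replication licensing genes Mcm2, Mcm3, Mcm5 and Mcm6, with Mcm3 at 71.1, 81.8 and 99.3 CPM and 5.43, 7.1 and 11.6 CPM (3.51, SE 0.22). Mki67 did not pass, at 13.8, 16.7 and 18.5 CPM in microglia and 5.43, 11 and 23.2 CPM in astrocytes, except without KO replicate 3, at 1.01.

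The split was found in the animals of both genotype labels. Tested within the 3 animals labelled WT 7655 genes were called (44.3%) and within the 3 labelled KO 8117 (46.9%), and the 6742 called in both had the same sign in each case. The median over the interferon-responsive list was 1.17 in WT and 1.4 in KO animals, over LPS sensing 3.9 and 3.57 and over transmitter handling -4.73 and -5.45, beside -0.12 and -0.2 over all genes. The 17 astrocyte markers went the same way as transmitter handling, at a median of -5.97 in WT and -6.88 in KO animals, and 10 of them had an unadjusted interaction p under 0.05. Their summed share of the counts was 0.0679% and 0.0803% in the microglia libraries of WT replicates 1 and 3, against 0.0358% to 0.04% in the other 4 microglia libraries. The part of this difference in marker share in the values by genotype was not tested. The difference between genotypes in the cell type difference was called for 0 of 17294 genes (0%) by edgeR's interaction test, where 819 genes (4.74%) had an unadjusted p under 0.05. DESeq2 called 42 genes, limma voom 0, and edgeR without a filter on low counts 146. The smallest edgeR adjusted p was 0.301, shared by Ccdc74a, Parva and Rims2. Parva, a focal adhesion gene, had a log2 fold change of -1.81 (SE 0.31) in the WT and -4.64 (SE 0.36) in the KO animals, a difference of -2.83 (SE 0.45). For Rims2 the values were -3.91 (SE 0.28) and -6.31 (SE 0.33), a difference of -2.4 (SE 0.39). Kpna4 itself differed by -0.87 (SE 0.31) between the genotypes, with an adjusted p of 0.913 by the same edgeR test.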

How the data were processed

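RNA from 6 microglia and 6 astrocyte sorts of 6 LPS-treated mice was sequenced. The authors deposited RSEM estimated counts by gene symbol, with microglia and astrocytes in separate tables; the submitters' processing notes name STAR 2.7.10b, RSEM 1.3.3, limma and GRCm39, without a role or order for each. Estimated counts were rounded to whole numbers, joined by symbol (40853) and scaled with TMM factors over the 12 libraries. Of these symbols 17294 passed filterByExpr (minimum count 10) and were tested with edgeR 4.0.16 in R 4.3.3 (quasi-likelihood, animal as block, Benjamini-Hochberg adjustment over all genes tested), with glmTreat for the 4-fold test and an interaction of cell type and genotype for the difference between genotypes. Total counts ran from 10319842 to 15575662 per library. The fit with animal as block had 5 residual degrees of freedom. PCR reads without molecular identifiers are not independent molecules. The kit is not stated to keep strand, so reads of overlapping antisense genes cannot be told apart, and reads of near-identical copies may have been divided among them.

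Pairing came from the animal numbers in the labels. Deviations of the libraries of an animal from their group means correlated at 0.00224 to 0.0929 across genes. Genes and lists, 734 genes in 37 lists and 52 ligand and receptor pairs, were chosen with earlier results of these data known. Named were Kpna4, the 10 genes with the largest change in each direction (at least 50 CPM in the higher type, the same sign in 6 animals and no overlap), up to 4 called genes per direction and 2 alike genes in each role of a list (at least 5 CPM), the genes of the pairs, the 3 genes with the smallest interaction p and other-cell markers over 50 CPM; 61 of the 266 genes named fall outside this rule, chosen with their values in view. The scripts were tested on simulated counts. Alternatives were DESeq2 1.42.0 and its size factors, limma 3.58.1 voom, filters, thinning to the smallest library, no block, no abundant non-coding transcripts, and each animal left out. Promoter stretches come from RefSeq (GRCm38.p6). No gene coordinates of the count tables are given, since the reference and the tables differ in build.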

Additional observations from a re-analysis of the deposited data

Results flagged for a closer look

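For 13 of 264 named genes, the log2 difference between the microglia and the astrocyte library (of CPM plus 0.5) in 1 animal lay apart from those of the other 5 animals; chance flags about 1 gene in 20. WT replicate 2 held 4 of them, each with a larger microglial excess: Cd14 at 8.77 against 4.06 to 5.07 in the other animals, Tgfb1 at 7.52 against 4.03 to 5.27, Hk2 at 6.10 against 4.54 to 4.86 and Maf at 4.64 against 3.35 to 3.67. The astrocyte library of that animal also had the lowest summed share of microglia markers, 0.0259% against 0.0416% to 0.0682% in the other 5, and its part in these values was not tested. In WT replicate 1, Gas6 stood at 1.01 against -0.32 to 0.03, Rela at 1.94 against 0.85 to 1.24 and Vim at -3.53 against -5.16 to -4.77. In WT replicate 3, Entpd2 stood at -4.05 against -7.07 to -6.03. In KO replicate 1, Gbp3 stood at 1.37 against -0.18 to 0.21, Cd52 at 2.17 against 3.82 to 4.70, and Hc at -2.29 against -4.44 to -3.69. In KO replicate 2, Cd74 stood at 6.56 against 2.64 to 3.91 and Chuk at 0.11 against -0.43 to -0.23.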

How the results depend on the processing

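Under the 14 alternatives 9618 to 12159 genes were called, and none of the 10802 genes called here changed sign. Without the replicate block 11008 genes were called, 10521 of them shared, and of the named genes Ly96, Il1r1 and Tnip1 lost their calls and Il6 gained one (3.85); the block changed no other call among the named genes. Leaving out an animal moved the median over all genes by up to 0.23, and changes in those settings are relative to that shift. Counts of genes called then ran from 9830 to 10651. For the difference by genotype the counts were 0 to 1 with an animal left out, 146 without a filter on low counts and 42 by DESeq2; the cause was not tested. The endothelial share of the counts differed by -0.0027 percentage points without TMM scaling and no longer passed (exact permutation p = 0.0625), and the choroid plexus difference ran from -0.00989, without WT replicate 3, to 0.0289, without KO replicate 2. Of 264 named genes, 7 near 0 turned in sign in some setting, none of them called in it: with an animal left out, Isg15 ran from -0.18 to 0.40 (and stood at 0.018 without the abundant non-coding transcripts), Lcn2 from -0.30 to 0.17, Gapdh from -0.17 to 0.065, Tab1 from -0.31 to 0.042, Sparc from -0.21 to 0.053, Il1rap from -0.28 to 0.038 and Gas6 from -0.086 to 0.34. Leaving out 1 animal moved the fold change of 41 called genes by over 1.5 times. Without KO replicate 1, the values were Acod1 7.0, Amigo2 -4.21, C1s1 -2.98, Cd52 4.75, Fbln5 -4.45, Hvcn1 6.81, Ly96 5.98, Nfkbid 6.90 and P2ry1 -7.45. Without KO replicate 2, the values were Ccdc74a -5.07, Gpnmb -4.54, Hsd11b1 -8.58 and Ifi44 -3.69. Without KO replicate 3, the values were Ackr3 -2.73, Ccdc74a -5.12, Ccl25 -1.45, Cd200 -4.11, Cxcl12 -1.49, Cxcr4 -3.30, Il34 -4.30, Lpl 5.50, Ly96 3.84, Oas1a 5.61 and Trem2 6.48. Without WT replicate 1, the values were Adora3 8.38, Cd200 -5.67, Cd200r1 5.78, Cst7 7.85, Emx2 -6.92, Fam20a -8.36, Fcgr4 7.16, Itgax 6.17, Lrch4 7.68, Ly96 5.72 and Sp110 7.16. Without WT replicate 2, the values were Cd200 -4.18, Cd200r1 5.82, Fam71a 7.64, Osm 6.92 and Osmr -7.32. Without WT replicate 3, the values were Adora2b -9.35, B3galt2 -8.58, Cfap57 -8.36, Entpd2 -8.69, Il34 -5.71, Kcnk13 6.69, Lrch4 7.59, Npy -8.26 and Wdr49 -9.33.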
